A study of Drosophila melanogaster with 12 samples.

Results

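Among the S9.6 peaks of *Drosophila* S2 cells, 280 regions of the arms X, 2L, 2R, 3L and 3R carried a peak of DNA:RNA hybrids in both libraries of control cells and in neither library of cells depleted of linker histone dH1. They are called control-only regions here. They were obtained by merging the 4 lists of S9.6 peaks without RNase H (RNH) treatment, where peaks sharing at least 1 bp were joined, and by keeping the regions on these arms with a peak of both control lists and of neither dH1-depleted list. The merged lists held 12155 regions in all and 7688 on these arms, so the control-only regions were 3.64% of the arm regions. Of the 1798 arm regions called in both control lists, they were 15.6% (280 regions), while 816 were also called in 1 dH1-depleted list and 702 in all 4 lists. The regions were thus chosen by the peak calls of the 4 lists, so that their scores, widths and positions are given as descriptions and were not tested. The peaks left after RNH treatment did not enter the choice.

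R-loops are structures in which an RNA pairs with one DNA strand and leaves the other strand single-stranded. They form mostly where RNA is being transcribed, are removed by RNase H enzymes and are a known source of genome instability when they persist. Linker histone H1, which is called dH1 in *Drosophila*, binds the nucleosome at the entry and exit of the DNA, compacts chromatin and contributes to silencing in heterochromatin. The chromosome arms hold most of the genes of the fly, in contrast to the repeat-rich heterochromatin around the centromeres.

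S2 cells, a *Drosophila* line of embryonic origin, were either control cells, labelled WT, or cells incubated for 8 days with dsRNA against dH1 (100 μg on days 1, 4 and 7). Control cells were left without dsRNA, so the addition of dsRNA and the loss of dH1 cannot be told apart. There were 2 biological replicates of each condition. From each of them came an input and a pair of S9.6 libraries, of DNA treated with 6 U of RNH or left without it. DNA had been treated with RNase A and sonicated to 500–1000 bp. The S9.6 antibody recognizes DNA:RNA hybrids, and peaks had been called by the authors against the input of the same replicate. The lists hold peaks and no levels of genes, so the identity of the cells and the loss of dH1 were taken from the labels.

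Without RNH treatment, the number of peaks on the arms was 2622 (replicate 1) and 2418 (replicate 2) for control cells and 5449 and 3287 for dH1-depleted cells. Replicate 1 of dH1-depleted cells stood apart, since the median width of its arm peaks was 221 bp, in front of 1266.5 to 1316 bp in the other 3 lists. After RNH treatment, the numbers of arm peaks were 98 and 74 for control cells and 61 and 375 for dH1-depleted cells, so that replicate 2 of dH1-depleted cells had most of them. How deeply the libraries were sequenced is unknown, and a list holds only peaks past the threshold of the authors (a *p*-value of 1e-05, which is a score of 50). A region without a peak may therefore still carry hybrids below that threshold.

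Within the lists of control cells, the peaks of control-only regions ranked below those of regions also called in dH1-depleted cells and above those called in 1 control list only. Their peaks were at the median percentile 32.8 of all scores in replicate 1 (quartiles 16.7 and 47.1) and 32.6 in replicate 2 (quartiles 18.2 and 47.9), where the MACS score is the negative log10 of a *p*-value times 10 and percentile 100 is the highest score of the list. For regions called in both control lists and in 1 dH1-depleted list, the medians were 52.2 and 48.7, and for regions called in all 4 lists they were 71.2 and 66.8. Regions called in 1 control list and in neither dH1-depleted list were lower still, with medians of 17.1 in replicate 1 and 17.7 in replicate 2. The order of these 4 classes was thus the same in both control lists. Both lists also fixed the classes, so this is a description and not independent support. Low ranks were also found in the regions called in both dH1-depleted lists only, whose median was 42.9 in the list of dH1-depleted replicate 1 and 39.6 in that of replicate 2. In scores, the medians of the control-only regions were 73.5 and 72.9, with 52 regions above a score of 100 in replicate 1 and 50 in replicate 2. The highest score was 235.11 in replicate 1 and 216.75 in replicate 2.

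The same calls and scores were also described from the side of the rank, which adds no independent evidence. Regions called in both control lists were ordered by the percentile in the lower of the 2 lists, whose median was 21.4 for control-only regions, 38.5 for regions with 1 dH1-depleted call and 62.4 for regions called in all 4 lists. Under percentile 50, 255 of 1041 regions were control-only (24.5%, 95% Wilson interval 22.0–27.2%). From percentile 50, they were 25 of 757 (3.30%, interval 2.25–4.83%). Under percentile 10, 72 of 237 regions were control-only (30.4%), and between percentiles 70 and 80 only 1 of 161. There were 0 of 150 between percentiles 80 and 90 and 0 of 99 from percentile 90, counts that allow shares of up to 2.00% and 3.03%. The intervals cover counting error only. The median of 21.4 changed with the library left out. It was 34.7 without replicate 2 of dH1-depleted cells and 22.0 without replicate 1 of them. With a control library left out, the percentile is that of the 1 control list that remains. Its median was then 24.3 without replicate 1 and 23.6 without replicate 2. For the 280 regions, the medians in these single lists were 32.6 (replicate 2) and 32.8 (replicate 1).

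**Figure D1:**
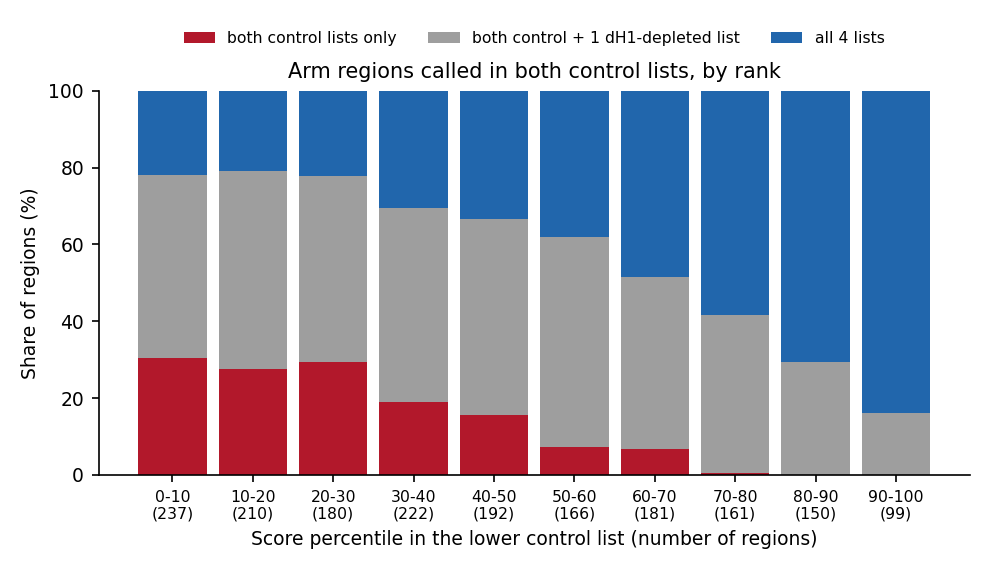
Arm regions called in both control lists, grouped along the x axis by the score percentile in the lower of the 2 control lists (number of regions in parentheses). Bars give the share (%) of control-only regions (red), of regions also called in 1 dH1-depleted list (grey) and of regions called in all 4 lists (blue), and the red share goes from 30.4% in the lowest bin to 0 in the 2 highest.

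The dH1-depleted replicates did not contribute equally. Among the 816 regions called in both control lists and in 1 dH1-depleted list, 637 had their peak in replicate 2 and 179 in replicate 1, the list of narrow peaks. The number of control-only regions rested on both lists. With replicate 2 of dH1-depleted cells left out, 932 regions fulfilled the rule, and with replicate 1 left out 459 did. Leaving out replicate 1 or 2 of control cells gave 519 and 606 regions. With the peaks of dH1-depleted replicate 1 extended around their centre to the median width of replicate 2, 271 of the 280 regions were still control-only.

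The peaks of control cells were at nearly the same place in both replicates. Each of the 280 regions held a single peak of each control list. The centres of these 2 peaks were 43 bp apart in the median, and the bases they shared were 91.4% of the bases they covered together. In regions called in all 4 lists these values were 35.5 bp and 93.8%. In rank the replicates were less alike, with a median difference of 15.5 percentile points in control-only regions, in front of 9.11 in regions called in all 4 lists. The rank correlation of the percentiles over regions was 0.27 in the 280 control-only regions and 0.81 in the 702 regions called in all 4 lists. Regions are not independent replicates, and the range of percentiles was narrower in the first class. Replicate 1 ranked higher in 139 of the 280 regions.

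Control-only regions were narrower than regions with dH1-depleted calls, but not the narrowest class. Their median width was 1199 bp (quartiles 1074 and 1533 bp, range 879–6410 bp), in front of 1514 bp for regions with 1 dH1-depleted call and 1983.5 bp for regions called in all 4 lists. Regions called in 1 control list only had a median of 1064.5 bp. Merged regions grow with the number of lists that call them, but the difference was also present in single peaks. In the list of control replicate 1, the peaks had a median width of 1128 bp in control-only regions, 1298 bp with 1 dH1-depleted call and 1681 bp in regions called in all 4 lists. In control replicate 2 these widths were 1094, 1269 and 1578 bp. Over 2000 bp were 28 control-only regions (10.0%), 14 of the regions called in 1 control list only (2.54%) and 342 of the regions called in all 4 lists (48.7%). Width went with rank, and at a like rank the distance between the classes was smaller. Under percentile 25, the median region width was 1113 bp in 161 control-only regions, 1265 bp in 259 with 1 dH1-depleted call and 1359 bp in 113 called in all 4 lists. From percentile 50 it was 1936, 1820.5 and 2315 bp, where control-only regions (25 regions) were no longer below those with 1 call.

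**Figure D2:**
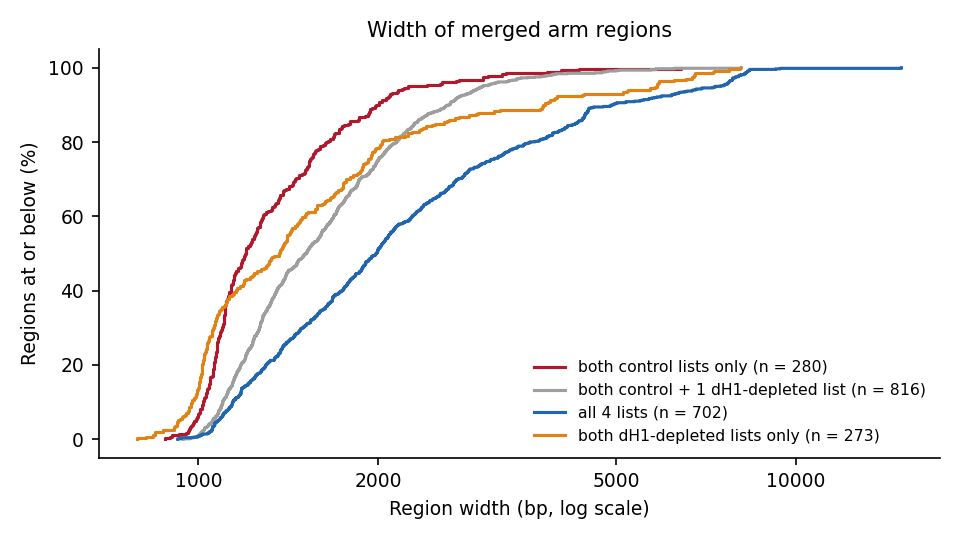
Cumulative share (%) of merged arm regions at or below a width (bp, log scale) for control-only regions (red), regions also called in 1 dH1-depleted list (grey), regions called in all 4 lists (blue) and regions called in both dH1-depleted lists only (orange). The red curve lies to the left of the grey and blue curves, with a median of 1199 bp in front of 1983.5 bp for the blue curve, and crosses the orange curve at the narrow end.

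The 3 widest control-only regions were found on different arms (dm3 coordinates). The widest, 2L:18670973-18677382, covered 6410 bp and had scores of 66.43 and 81.53 in replicates 1 and 2 of control cells, at percentiles 24.9 and 40.6. The nearest peak of dH1-depleted replicate 1 was 1194 bp away and that of replicate 2 was 9128 bp away. The region 2R:11779174-11783514 covered 4341 bp, with scores of 69.16 and 117.38. The region X:15053544-15057586 covered 4043 bp, with scores of 188.24 and 117.26, and its peak was 4043 bp wide in replicate 1 and 2199 bp in replicate 2. The first 2 of these regions were thus wide but of low score in replicate 1, while the third was at percentile 79.8 there.

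The 8 control-only regions ranked highest by the lower of their 2 percentiles lay on all 5 arms. The first was X:3275797-3278527, with scores of 235.11 and 172.27 and dH1-depleted peaks at 2074 bp in replicate 1 and 6896 bp in replicate 2. On 2R, the region 4842235-4844314 had scores of 132.72 and 143.34, and a peak of dH1-depleted replicate 2 was 170 bp away. Also on X, the region 15094772-15097997 had scores of 133.22 and 216.75 and dH1-depleted peaks at 1734 and 1326 bp.

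The other 5 regions of this ranking were on 2L, 2R, 3L and 3R. The regions 3L:16761529-16763772 and 3R:4942100-4944515 were the highest of their arms, with percentiles of 66.0 and 68.1 on 3L and of 66.4 and 65.2 on 3R. On 2L, the highest region was 1809714-1811396, at percentiles 64.7 and 74.3, with a peak of dH1-depleted replicate 2 at 404 bp. The region 3L:548213-551267 was at percentiles 64.4 and 83.0, with a dH1-depleted peak at 861 bp. Of the 8 regions, 2R:14033019-14034204 was the farthest from replicate 2 of dH1-depleted cells, whose nearest peak was 54613 bp away.

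Control-only regions were distributed over the 5 arms, with 61 on 2L, 50 on 2R, 63 on 3L, 71 on 3R and 35 on X. Taking the last peak end over the 8 lists as the length of an arm, these were 2.65, 2.37, 2.57, 2.54 and 1.56 regions per Mb. The X chromosome was lowest, but it also held fewer peaks of other classes. As a share of the regions called in both control lists, control-only regions were 14.4% on X (35 of 243, interval 10.5–19.4%) and 15.8% on the autosomal arms (245 of 1555, interval 14.0–17.7%), a difference that was not tested. Among the arms this share went from 14.4% on X and 3L to 17.6% on 3R (71 of 403, interval 14.2–21.6%). Regions called in all 4 lists were 49.8% of those called in both control lists on X, in front of 37.4% on the autosomal arms.

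Along the arms, 4 control-only regions (1.43%) lay within 1 Mb of the centromeric end of an arm, compared with 4.98% of all arm regions. Low shares were also found for regions with 1 dH1-depleted call (15 regions, 1.84%) and for those called in 1 control list only (6 regions, 1.09%). The share was 3.13% (22 regions) for regions called in all 4 lists and 5.86% for the 273 regions called in both dH1-depleted lists and neither control list (16 regions). Within 1 Mb of the telomeric end there were 16 control-only regions (5.71%), compared with 3.88% of all arm regions. Their median position was at 52.8% of the arm, counted from the centromeric end.

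The distance between control-only regions was then described. The nearest other control-only region was 92661 bp away in the median (range 550–3646124 bp). Another one lay within 5 kb of 21 regions (7.5%), within 20 kb of 47 (16.8%) and within 100 kb of 150 (53.6%). The 273 regions called in both dH1-depleted lists only, which are about as many, had a median gap of 126700 bp and 17.6% within 20 kb. The 702 regions called in all 4 lists are more numerous, and 50.1% of them had another of their class within 20 kb.

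To take the density of peaks into account, the next merged region on each side was considered, whatever its class. Of the 560 neighbours of control-only regions, 14 were themselves control-only (2.50%), a share below the 3.64% that these regions make up of all arm regions. For regions called in all 4 lists it was 14.5% of 1404 neighbours, in front of 9.13% of all arm regions. For regions called in both dH1-depleted lists only it was 5.51% of 544 neighbours, in front of 3.55% of all arm regions. These shares were not tested. There were 7 pairs of neighbours and no longer run, and of the 2 regions next to each control-only region, 63.0% belonged to none of the 5 classes considered here, as did 65.9% of all arm regions. These 5 classes are the control-only regions, those with 1 dH1-depleted call, those called in all 4 lists, those called in both dH1-depleted lists only and those called in 1 control list only. The pair that covers the shortest stretch was 3L:3054824-3055897 and 3L:3057712-3058901, which are 1814 bp apart. The scores of the first were 61.26 and 64.34 and those of the second 75.77 and 64.28.

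The share of regions with another one within 20 kb depended on the library used. It was 27.2% and 31.7% without replicate 1 or 2 of control cells and 32.9% and 49.8% without replicate 1 or 2 of dH1-depleted cells, settings that also raise the number of regions. It was 8.49% when regions with a dH1-depleted peak closer than 1000 bp were left out.

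**Figure D3:**
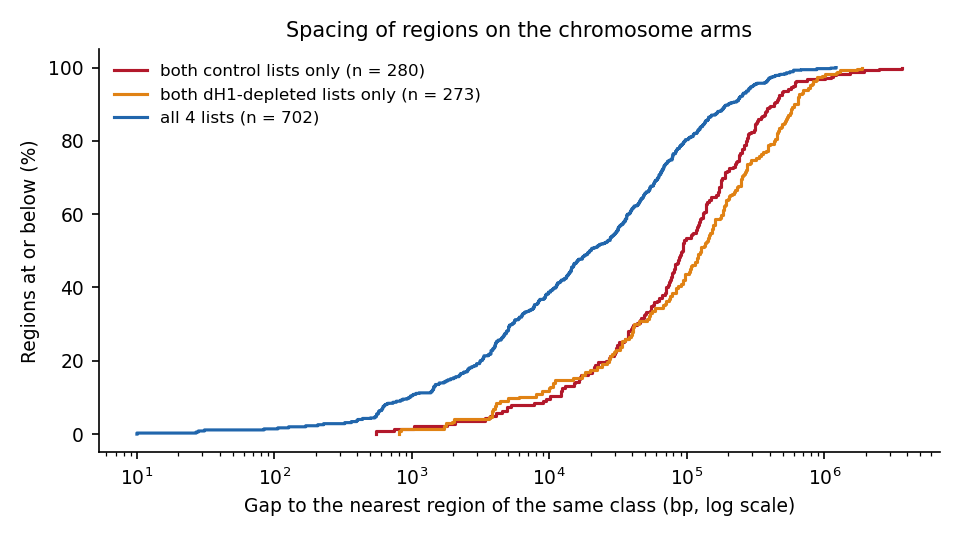
Cumulative share (%) of arm regions at or below a gap (bp, log scale) to the nearest region of the same class, for control-only regions (red), regions called in both dH1-depleted lists only (orange) and regions called in all 4 lists (blue). The red and orange curves run close to each other, with medians of 92661 and 126700 bp, to the right of the blue curve.

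A denser group was found on 3L, where 7 control-only regions lay within 70651 bp (3L:7802183-7872833). This stretch held 22 merged regions in all, of which 3 were called in both control lists and 1 dH1-depleted list, none in all 4 lists and none in both dH1-depleted lists only. In the order of their position, the 7 regions had scores of 74.30, 74.41, 86.28, 64.02, 53.05, 69.22 and 105.25 in replicate 1 of control cells. In replicate 2 the scores were 99.87, 64.68, 100.41, 95.89, 63.76, 70.73 and 82.70. Their highest percentile was 55.6 in replicate 1 and 53.2 in replicate 2, so that none was among the strongest peaks of the lists. All 7 had a dH1-depleted peak nearby, at 2625, 390, 183, 2472, 1718, 4 and 557 bp in the same order. Of these peaks, only that at 183 bp was of replicate 2 of dH1-depleted cells, and the others were of replicate 1.

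The median gap from control-only regions to peaks of dH1-depleted cells was near that of regions called in 1 control list only, which is given below. The median gap to the nearest peak of either dH1-depleted list was 3088 bp (quartiles 1016 and 7408 bp). A dH1-depleted peak lay within 500 bp of 39 regions (13.9%), within 1 kb of 69 (24.6%), within 5 kb of 170 (60.7%) and within 10 kb of 229 (81.8%), and 21 regions had none within 20 kb. By list, the median gap was 5224 bp to replicate 1 and 7071 bp to replicate 2. In spite of its narrow peaks, replicate 1 was thus the nearer list in the median, and it has more peaks. Within 500 bp the order was the opposite, with 10 regions near a peak of replicate 1 and 32 near a peak of replicate 2. With a single dH1-depleted list in use, the share within 5 kb was 46.6% (replicate 1) and 43.6% (replicate 2) of the regions that then fulfilled the rule.

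Regions called in 1 control list only were at a like median distance, but a smaller share of them was within 1 kb. The 552 arm regions called in 1 control list and in neither dH1-depleted list had a median gap of 3389 bp, and 60.0% of them were within 5 kb of a dH1-depleted peak. Within 500 bp they were 10.9% and within 1 kb 18.5%, in front of 13.9% and 24.6% of control-only regions. These shares were not tested. The 273 regions called in both dH1-depleted lists only were farther from a control peak, with a median of 5995 bp and 44.3% within 5 kb, but the control lists are shorter.

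**Figure D4:**
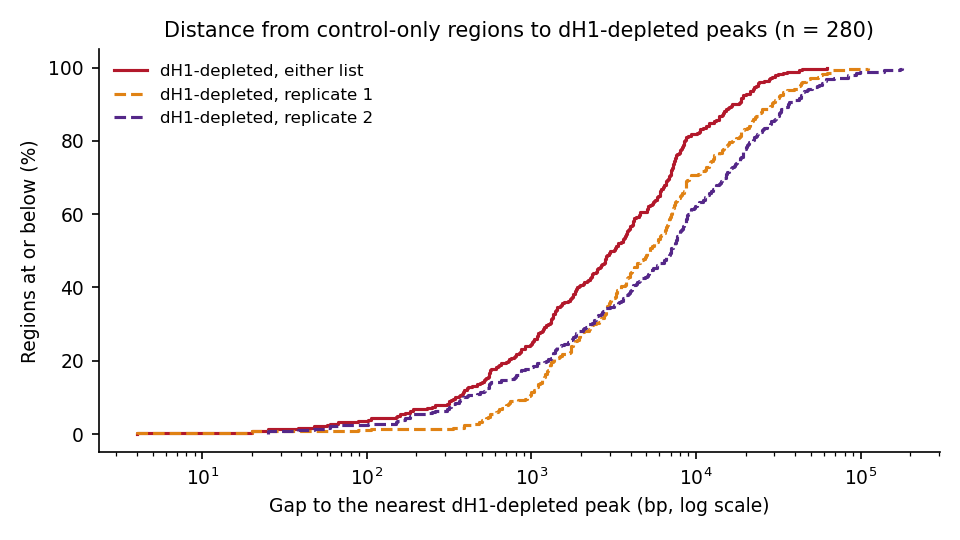
Cumulative share (%) of the 280 control-only regions at or below a gap (bp, log scale) to the nearest dH1-depleted peak of either list (red) and of replicates 1 (orange, dashed) and 2 (purple, dashed). Of the regions, 24.6% are within 1 kb of a peak of either list and 81.8% within 10 kb.

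The peak of dH1-depleted cells nearest to a control-only region was at the median percentile 36.4 of its list. Percentiles are taken over the whole list, also outside the arms, and this median was not set beside that of other arm peaks. The nearest peak belonged to replicate 1 for 132 regions and to replicate 2 for 148. The merged region that holds this peak was also called in control cells for 118 of the 280 regions (42.1%). This was the case for 26 of the 132 peaks of replicate 1 (19.7%) and for 92 of the 148 peaks of replicate 2 (62.2%). Replicate 1 had 5449 arm peaks in all and replicate 2 had 3287, compared with 2622 and 2418 in the control lists. The same share over all dH1-depleted arm peaks was not taken, so these shares cannot be read as particular to control-only regions.

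The flanks of the regions were described in the same way, by the peaks that lie within 10 kb on either side and outside the region. There were on average 1.83 and 1.18 peaks of dH1-depleted replicates 1 and 2 around control-only regions. Around regions with 1 dH1-depleted call there were 1.53 and 1.30, and around regions called in all 4 lists 2.18 and 1.62. For the control lists, these averages were 1.20 and 1.13 around control-only regions, 1.22 and 1.15 with 1 dH1-depleted call and 1.51 and 1.44 in regions called in all 4 lists. In dH1-depleted cells 70.7% (replicate 1) and 62.1% (replicate 2) of the control-only regions had a peak in the flanks. These shares were 68.1% and 67.0% with 1 dH1-depleted call and 78.8% and 71.4% in regions called in all 4 lists.

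The regions just inside and just outside the rule differed by a few bases. Just inside, 3L:7869312-7871052 was 4 bp from a peak of dH1-depleted replicate 1, 2L:12991007-12992906 was 20 bp from a peak of the same list, and 2R:6865123-6866024 was 25 bp from a peak of replicate 2. Just outside, the control peaks of 3L:5936237-5937473 and 3R:15371055-15372393 shared 4 bp with a peak of dH1-depleted replicate 1, and those of 2L:15986742-15987882 shared 24 bp. Such cases were rare, since only 4 of the 816 regions with 1 dH1-depleted call shared 100 bp or less, and 10 control-only regions had a gap of 100 bp or less. At the other extreme, X:13005624-13006644 had no dH1-depleted peak within 62779 bp, 2L:3027807-3028991 none within 44084 bp and 2R:18348462-18349494 none within 42501 bp. The scores of the region on X were low, at 59.81 and 52.98, and those of the region on 2L were 81.22 and 92.87.

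After RNH treatment, few peaks were called on the arms, in control-only regions as in the others. In the 2 RNH-treated lists of control cells, no peak overlapped any of the 280 regions, which allows a share of up to 1.07% for each list (the Wilson interval reaches 1.35%). Over all 7688 arm regions, the overlapped share was 1.25% and 0.976% in these lists. By the Wilson interval, 0 of 280 regions does not place control-only regions apart from them. The share of 1.25% in replicate 1 is above the limit of 1.07%, so the 2 bounds differ there. In RNH-treated dH1-depleted cells, 0 of the 280 regions were overlapped in replicate 1 (0.911% of all arm regions) and 6 in replicate 2 (2.14%, interval 0.986–4.60%, in front of 2.21% of all arm regions). In any of the 4 lists, 6 control-only regions were overlapped (2.14%, interval 0.986–4.60%), in front of 3.89% of all arm regions. The share in control-only regions was thus near that of all arm regions in replicate 2 of dH1-depleted cells. Over any of the lists it was lower, with an interval that holds 3.89%.

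Between conditions, the log2 odds of an overlap after RNH treatment differed by 1.87 on average, dH1-depleted minus control, with 0.5 added to each count. The SD was 2.64 between the dH1-depleted replicates and 0 between those of control cells. The spread between replicates was larger than this. A permutation test over the lists (exact, 2-sided) gave *p* = 1, also after adjustment over 2 tests. Since 3 of the 4 lists had the same value, every regrouping gave the same difference in size, and the test can tell nothing here. The difference was 0 without replicate 2 of RNH-treated dH1-depleted cells and 3.73 without replicate 1. In pairs of the same replicate number (exact sign-flip test, 2-sided) *p* was also 1.

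The share overlapped after RNH treatment was below that of regions called in all 4 lists in each RNH-treated list, but 4 lists are too few for the test to pass. The classes also differed in width, with medians of 1199 bp in control-only regions and 1983.5 bp in regions called in all 4 lists. Any 1 bp shared counts as an overlap, and the comparison was not adjusted for width. Among the 702 regions called in all 4 lists, 51 (7.26%) and 37 (5.27%) were overlapped in replicates 1 and 2 of control cells compared with 26 (3.70%) and 44 (6.27%) for dH1-depleted cells. The mean difference was -4.11 in log2 odds (SD 1.78, *n* = 4 lists), where the value of a list with 0 overlaps rests on the 0.5 added. The exact sign-flip test over the 4 lists (2-sided) had *p* = 0.13, the lowest it can reach, and 0.25 after adjustment over 2 tests (Benjamini-Hochberg). RNH-treated lists share the input of their replicate with the lists that fixed the classes. The difference was -2.53 when only regions under percentile 50 of both classes were compared, a setting chosen after seeing the data. In the other classes, a peak of any RNH-treated list overlapped 28 of the 816 regions with 1 dH1-depleted call (3.43%), 7 of the 552 regions called in 1 control list only (1.27%) and 23 of the 273 called in both dH1-depleted lists only (8.42%).

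The share overlapped after RNH treatment also went with rank in regions called in all 4 lists. Under percentile 25 a peak of any RNH-treated list overlapped 4 of 161 control-only regions (2.48%) and 5 of 113 regions called in all 4 lists (4.42%). Between percentiles 25 and 50 they were 1 of 94 (1.06%) and 12 of 155 (7.74%). From percentile 50 they were 1 of 25 (4.00%) and 78 of 434 (18.0%).

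**Figure D5:**
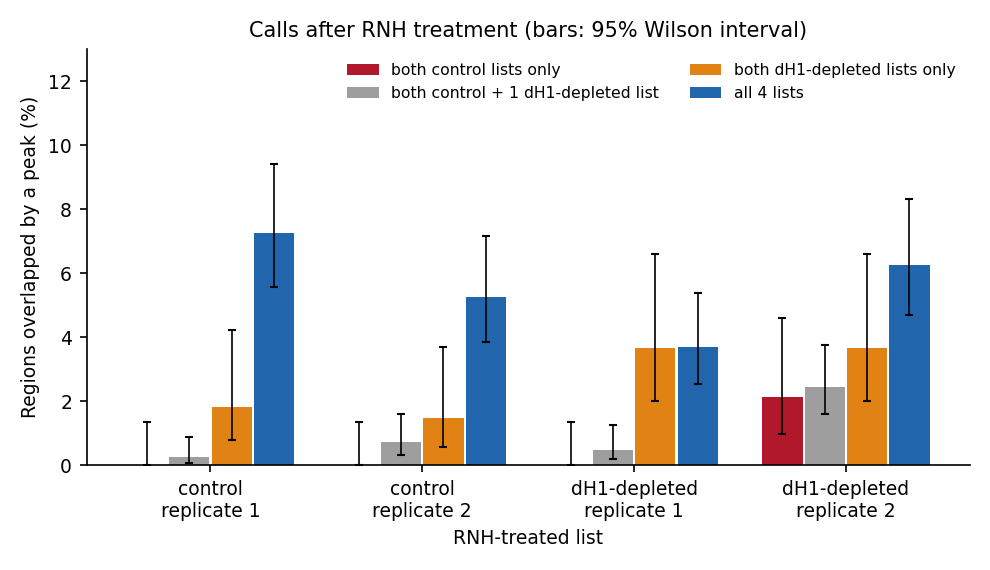
Share (%) of arm regions overlapped by a peak in each of the 4 RNH-treated lists, for control-only regions (red), regions with 1 dH1-depleted call (grey), regions called in both dH1-depleted lists only (orange) and regions called in all 4 lists (blue), with 95% Wilson intervals that cover counting error only. Control-only regions are at 0 in 3 lists and at 2.14% in replicate 2 of dH1-depleted cells.

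The 6 control-only regions with a peak after RNH treatment had it in replicate 2 of dH1-depleted cells, a condition in which no peak was called without RNH treatment. On 2L, the region 1387197-1390190 shared 2351 bp with an RNH-treated peak of 7786 bp, and 13165547-13166786 was entirely covered by one of 1848 bp. On 2R, the region 5353509-5356785 shared 2810 bp with a peak of 4827 bp, and 11645746-11647479 shared only 6 bp with a peak of 3427 bp. On 3R, the region 25124884-25126940 shared 588 bp with a peak of 6460 bp, and on X, 14742203-14744130 shared 425 bp with a peak of 1961 bp. The RNH-treated peaks were thus wider than the control-only regions in each of the 6 cases. Their scores were 76.49, 60.08, 104.94, 176.40, 121.66 and 55.89 in this order, between percentiles 14.0 and 85.8 of their list. The nearest RNH-untreated peak of dH1-depleted replicate 2 was between 2063 and 17237 bp from these regions.

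Outside the regions, RNH-treated peaks were far in control cells. The nearest was 2036 bp from a control-only region in replicate 1 and 2909 bp in replicate 2, with medians of 393420 and 457290 bp. Within 1 kb, a peak was found for 0 regions in both control lists, for 1 in replicate 1 of dH1-depleted cells and for 10 in replicate 2, including the 6 described.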

How the data were processed

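Alignment to dm3 (Bowtie 0.12.5, multiple alignment sites of a read kept), removal of duplicates (sambamba) and peak calling (MACS 1.4, *p*-value of 1e-05, each S9.6 library against its own input, replicates not pooled) were done by the authors. Reads of repeated sequences are thus counted at each copy. The deposited lists give positions and a score, the negative log10 of the *p*-value times 10, which grows with depth and was used only for ranks within a list (ties counted by their middle rank) and as a threshold. The depth is unknown. No value column was left unassigned (0 columns).

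The study's own comparison used read coverage and DiffBind, which need the reads, and was not repeated. It kept only peaks whose signal fell after RNH treatment in both replicates, a filter that was not applied here. The paper reported many more regions with increased than with reduced R-loops upon dH1 depletion. The classes given here are peak calls, and their sizes are not counts of such increases or reductions. Peaks of the 4 RNH-untreated lists on 2L, 2R, 3L, 3R and X were merged and classed by the lists that call them. Positions are counted from 1. A region was overlapped by an RNH-treated peak when they shared at least 1 bp. Where a region held several peaks of a list, that of highest score was used. Gaps are the bases between 2 intervals. Shares have 95% Wilson intervals, and 3 counts give the limit of a share at 0. Regions named are the 8 of highest percentile in the lower control list and the highest of each arm, the 3 widest, those of the longest run of neighbours and of the 100 kb with most regions, the 3 at the smallest and the 3 at the largest gap, the 3 outside the rule with the smallest overlap, and all with an RNH-treated peak. The regions and rules were chosen with earlier results of these data known.

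Alternatives were a score of 100 and above, an overlap of 50% of the shorter interval, merging the control lists alone, widened peaks in dH1-depleted replicate 1, counting dH1-depleted peaks closer than 1000 bp as calls, lists of equal length (the best 3807 peaks of each), RNH-treated peaks within 1000 bp, leaving out each library and a block for the replicate number. SciPy 1.17.1, NumPy 2.4.6 and matplotlib 3.10.9 were run under Python 3.11.15, and the calculations were tested on simulated data. Genes, repeats and sequences at the regions were not analysed here, because the gene annotation given is not on dm3.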

Additional observations from a re-analysis of the deposited data

How the results depend on the processing

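The number of control-only regions was 121 with peaks of score 100 and above, of which 20 were among the 280 regions. This threshold removes control peaks, and with them most of the 280 regions, and at the same time dH1-depleted peaks, which adds regions. It was 580 with equal numbers of peaks, which keeps 259 of the 280. This setting shortens the lists of dH1-depleted replicates 1 and 2 from 9368 and 5526 peaks to 3807. It was between 459 and 932 with a library left out. An overlap of 50% and merging the control lists alone gave the same 280 regions.

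The median width of 1199 bp became 1883 bp with score 100 and above and 1254.5 bp with equal numbers (1077 to 1338.5 bp with a library left out). The median percentile in the lower control list, 21.4, became 62.7 with score 100 and above and 26.4 with equal numbers. Percentiles were taken over the full lists, so a score of 100 and above keeps upper ranks only, and this rise follows from the filter. The median was 21.2 with widened peaks and 21.8 without regions closer than 1000 bp to a dH1-depleted peak. Without replicate 1 or 2 of dH1-depleted cells it was 22.0 or 34.7. Leaving out replicate 1 or 2 of control cells gave 24.3 or 23.6 in the 1 control list that remained, in front of 32.6 and 32.8 there. The share with another control-only region within 20 kb became 36.6% with equal numbers and 8.49% without regions closer than 1000 bp (27.2% to 49.8% with a library left out). The share within 5 kb of a dH1-depleted peak, 60.7%, became 40.5% with score 100 and above, 40.3% with equal numbers and 48.1% without regions closer than 1000 bp (43.6% to 62.2% with a library left out).

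After RNH treatment, the difference between conditions in log2 odds went from 0 to 3.73 with a library left out. With the replicate number as a block it was 1.87 again (exact sign-flip test on 2 pairs, *p* = 1). That between control-only regions and regions called in all 4 lists kept its direction under all alternatives run, and went from -5.27 (equal numbers) to -2.53 (regions under percentile 50, chosen after seeing the data). None of these alternatives compared regions of like width. With 2 pairs, whether equal numbers pair the libraries was not tested. The lists give no depth, so a region under the threshold cannot be told from one without hybrids.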
